A study of Homo sapiens with 10 samples.

Results

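The interleukin-1 (IL-1) family was examined in hTERT RPE-1, an immortalised human line derived from retinal pigment epithelium that carries telomerase, through 7 genes chosen by name: the ligand genes IL33, IL1B, IL1A and IL18 and the receptor genes IL1R1, IL1RAP and IL1RL1. All 7 were among the 40664 rows of the deposited gene table, and 5 of them were among the 13990 genes that passed the filter on low counts. The genes were picked with earlier results of these data known, so their values are a description of these libraries. Cells treated with siNemp1, a small interfering RNA named for NEMP1 (a protein of the inner nuclear envelope), were set against control cells on a stiff (120 kPa) and on a soft (10 kPa) substrate. There were 3 siNemp1 and 3 control libraries at 120 kPa, and 2 siNemp1 and 2 control libraries at 10 kPa. The sources used here do not say what the controls received, which siRNA sequence was used, how long the treatment ran or what the substrates were made of. All libraries came from a single cell line, and nothing in the labels says that replicates came from separate cultures, so p-values here reflect only how these libraries vary, and that variation may be technical.

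The IL-1 family comprises secreted and nuclear cytokines that alarm neighbouring cells. IL-1α and IL-1β, the products of IL1A and IL1B, bind the receptor IL1R1, which pairs with the accessory chain IL1RAP and signals through MYD88 and IRAK kinases to NF-kB and to chemokine genes such as CXCL8. IL-33 is stored in the nucleus of epithelial, endothelial and stromal cells and is set free when they are damaged; its receptor, encoded by IL1RL1 and also called ST2, uses the same accessory chain. IL-1β and IL-18 are made as precursors that caspase-1 cuts.

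The promoters of the 3 ligand genes whose levels are described most closely are shown as the 250 bases before the RefSeq start site (RefSeq, GRCh38.p14), each read 5′ to 3′ on the gene's strand. They lie at chr9:6215557-6215806 (plus strand) for IL33, at chr2:112836780-112837029 (minus strand) for IL1B and at chr2:112784494-112784743 (minus strand) for IL1A. Capitals mark the searched motifs that were found.
IL33: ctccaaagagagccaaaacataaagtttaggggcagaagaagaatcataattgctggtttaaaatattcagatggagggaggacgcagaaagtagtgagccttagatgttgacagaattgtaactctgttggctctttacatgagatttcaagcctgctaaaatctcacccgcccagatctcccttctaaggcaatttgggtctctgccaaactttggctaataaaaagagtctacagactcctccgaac
IL1B: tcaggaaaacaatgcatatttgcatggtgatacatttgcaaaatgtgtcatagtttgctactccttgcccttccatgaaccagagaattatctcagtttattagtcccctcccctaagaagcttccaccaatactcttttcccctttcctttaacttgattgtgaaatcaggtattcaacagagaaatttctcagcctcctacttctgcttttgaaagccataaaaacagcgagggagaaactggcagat
IL1A: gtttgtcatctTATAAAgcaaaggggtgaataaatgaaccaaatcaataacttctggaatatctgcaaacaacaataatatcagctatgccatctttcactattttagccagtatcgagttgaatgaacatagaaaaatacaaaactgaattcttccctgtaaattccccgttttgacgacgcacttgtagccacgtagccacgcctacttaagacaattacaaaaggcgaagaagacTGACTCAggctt

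The motifs, searched on both strands, were the NF-kB site, the AP-1 site TGANTCA, the TATA box TATAAA, the cyclic AMP response element TGACGTCA, the CArG box of serum response factor and the TEAD site GGAATG. In the IL1A window an AP-1 site lay at −12 to −6 and a TATAAA at −239 to −234, counted in bases from the start site. None of the 6 motifs was in the IL33 or the IL1B window shown. Among 35116 windows of this length, 9.96% held the NF-kB site, 6.57% the AP-1 site, 10.7% TATAAA, 1.65% the cyclic AMP response element, 1.16% the CArG box and 11.9% the TEAD site. RefSeq and GENCODE 29 place the starts of these 3 genes 21, 124 and 97 bases apart in the order IL33, IL1B, IL1A, and the start used in these cells was not measured.

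The libraries held 17.9 to 23.8 M estimated counts (M for 1000000). NEMP1 was below every control library in each siNemp1 library of the same stiffness. At 120 kPa it had 7.52, 6.70 and 4.11 counts per 1000000 (CPM) in siNemp1 libraries, against 18.3, 14.1 and 14.0 CPM in control libraries. Its log2 fold change there was −1.34 ± 0.22 (SE), with an edgeR adjusted p of 0.057, or −1.37 and 0.0057 when the replicate number was added as a block. At 10 kPa the fold change was −0.98 ± 0.27 (edgeR adjusted p = 0.80). Of the epithelial markers KRT8 (755 to 1204 CPM) and KRT18 (499 to 772 CPM) were abundant while CDH1 and EPCAM had at most 3 counts in any library. Of the pigment epithelium markers BEST1 (57.5 to 91.7 CPM), MITF and OTX2 were present and RPE65 and RLBP1 had at most 2 counts in any library. The mesenchymal marker VIM, which RPE-1 cells are known to express, had 1604 to 2997 CPM. THY1, another, fell with siNemp1 at 120 kPa by 0.73 ± 0.15 on the log2 scale in the blocked fit (edgeR adjusted p = 0.020). That fit called 2.51% of all tested genes lower, and the fit without the block called no gene in this comparison. The THY1 ranges overlapped at 120 kPa, with 255 to 628 CPM in siNemp1 and 604 to 807 CPM in control libraries. Of the 5 listed mesenchymal markers 1 had a positive fold change there.

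IL33 was the most abundant of the 7 genes. Its siNemp1 and control levels overlapped on the stiff substrate, where it differed widely between libraries of the same group. At 120 kPa it had 712, 531 and 233 CPM in the siNemp1 libraries numbered 1, 2 and 3, against 754, 570 and 361 CPM in the control libraries with the same numbers. On the soft substrate it had 568 and 563 CPM in siNemp1 libraries, against 531 and 533 CPM in control libraries. The siNemp1 libraries were thus slightly above the control libraries at 10 kPa, where 28.8% of tested genes were higher without overlap and 28.5% lower. The library numbered 3 was the lowest of its group in both treatments at 120 kPa. All 4 libraries at 10 kPa lay inside the range of either group at 120 kPa.

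The group means of IL33 at 120 kPa were 492 ± 242 CPM in siNemp1 cells and 562 ± 197 CPM in control cells (SD, n = 3 each). At 10 kPa they were 566 ± 3.62 CPM in siNemp1 cells and 532 ± 1.55 CPM in control cells (SD, n = 2 each). In descending order the means ran from siNemp1 at 10 kPa through control at 120 kPa and control at 10 kPa to siNemp1 at 120 kPa, and neighbours in that order overlapped in their ranges. Per length of the longest annotated transcript IL33 averaged 203 CPM per kb over the 10 libraries, above 98.8% of the 23217 genes with counts and a length. IL1B averaged 11.97, IL1RAP 3.27, IL1R1 0.880, IL1A 0.250, IL18 0.0310 and IL1RL1 0.0165 CPM per kb. IL33 lies on chromosome 9 from 6215786 to 6257983, plus strand (ENSG00000137033, GRCh38).

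The fitted log2 fold change of IL33, given with its standard error and without a test because the genes were chosen around IL33 with its values known, was −0.19 ± 0.35 for siNemp1 against control on the stiff substrate and 0.09 ± 0.43 on the soft one. For 120 kPa against 10 kPa it was −0.20 ± 0.39 in siNemp1 cells and 0.08 ± 0.40 in control cells. Within the pairs numbered 1, 2 and 3 at 120 kPa, the siNemp1 level of IL33 was 0.944, 0.932 and 0.645 of the control level. How many of all genes lay below control in every pair was not counted. The fit with a replicate block gave −0.27 ± 0.13 at 120 kPa, and for 120 kPa against 10 kPa it gave 0.03 ± 0.16 in siNemp1 cells and 0.39 ± 0.16 in control cells. That block assumes the same replicate differences on both substrates, but same-group libraries differed clearly in IL33 only at 120 kPa. Single libraries turned the sign of the unblocked values, except for siNemp1 against control at 10 kPa, which stayed at 0.076 to 0.098. With each library left out in turn, the log2 fold change of IL33 for siNemp1 against control at 120 kPa ran from −0.57 without siNemp1 replicate 1 to 0.10 without siNemp1 replicate 3. For 120 kPa against 10 kPa it ran from −0.57 to 0.10 in siNemp1 cells, at the same 2 libraries, and in control cells from −0.19 without control replicate 1 to 0.31 without control replicate 3 at 120 kPa. In RNA from whole cultures, fewer cells carrying a transcript and less of it per cell cannot be told apart.

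**Figure D1:**
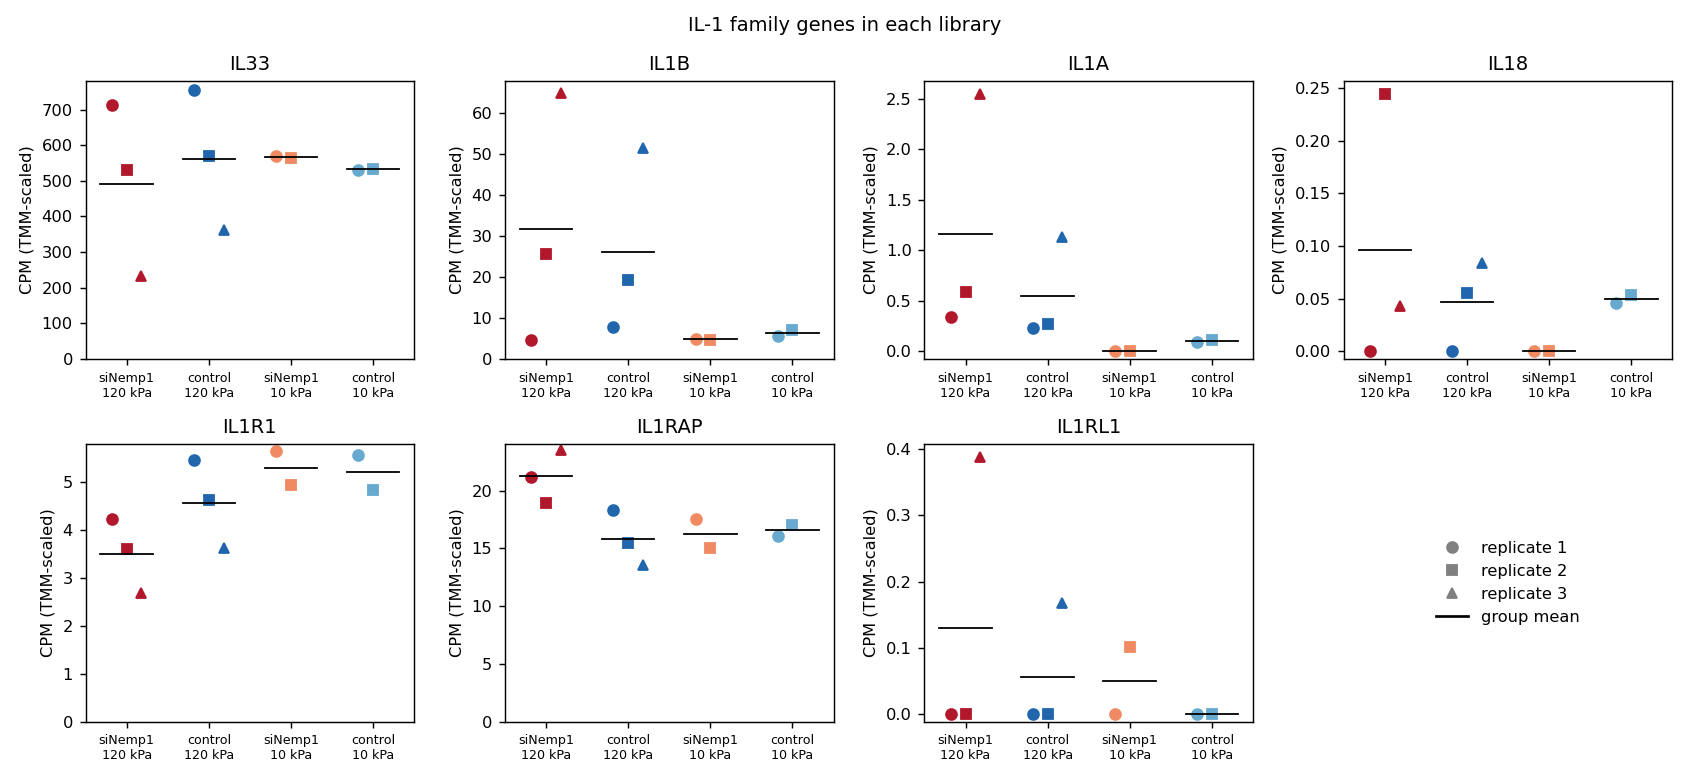
Level of each of the 7 family genes (CPM after TMM scaling, linear axes that differ between panels) in each library, by group; the symbol gives the replicate number and the line the group mean. IL33 was lowest and IL1B and IL1A highest in the library numbered 3 of each treatment at 120 kPa, IL1RAP was higher in each of the 3 siNemp1 than in each of the 3 control libraries at 120 kPa, and IL18 and IL1RL1 rest on 0 to 9 counts per library.

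IL1B varied more than IL33 and in the other direction. At 120 kPa it had 4.62, 25.5 and 64.7 CPM in the siNemp1 libraries numbered 1, 2 and 3, against 7.69, 19.2 and 51.3 CPM in the control libraries. The soft libraries had 4.78 and 4.74 CPM with siNemp1, against 5.57 and 7.11 CPM in controls. The libraries numbered 2 and 3 at 120 kPa stood above all 4 soft libraries, while those numbered 1 were near the soft level. The highest library was 14.0 times the lowest in siNemp1 cells and 6.67 times the lowest in control cells at 120 kPa. A spread as wide as that of IL1B on the log2 scale was found in 0.0929% of tested genes among the siNemp1 libraries and in 0.307% among the control libraries at 120 kPa. For IL33 these shares were 1.92% among the siNemp1 and 8.36% among the control libraries. Among the soft libraries its spread was narrower than that of most genes, 94.3% of which varied at least as much in siNemp1 cells and 96.1% in control cells. IL1B lies on chromosome 2 from 112829751 to 112836903, minus strand (ENSG00000125538).

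No difference of IL1B between groups passed the test. For 120 kPa against 10 kPa its log2 fold change was 2.73 ± 1.09 in siNemp1 cells (edgeR adjusted p = 0.40), where the ranges overlapped, and 2.04 ± 1.06 in control cells (edgeR adjusted p = 0.99), where they did not. With the replicate block, whose stiffness contrasts rest mainly on replicates 1 and 2, the same differences were 1.39 in siNemp1 cells and 0.89 in control cells and no call changed. That block assumes the same replicate differences on both substrates, but between numbers 1 and 2 IL1B differed far more at 120 kPa than at 10 kPa. A fit with no filter on low counts did call IL1B higher at 120 kPa, with edgeR adjusted p = 9.26e-28 in siNemp1 cells and 4.16e-16 in control cells. Without both libraries numbered 3 at 120 kPa the difference was 1.64 in siNemp1 cells and 1.09 in control cells. For siNemp1 against control it was 0.28 ± 0.85 at 120 kPa (edgeR adjusted p = 0.90, 95% interval −1.65 to 2.20) and −0.41 ± 1.14 at 10 kPa (edgeR adjusted p = 0.97).

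**Figure D2:**
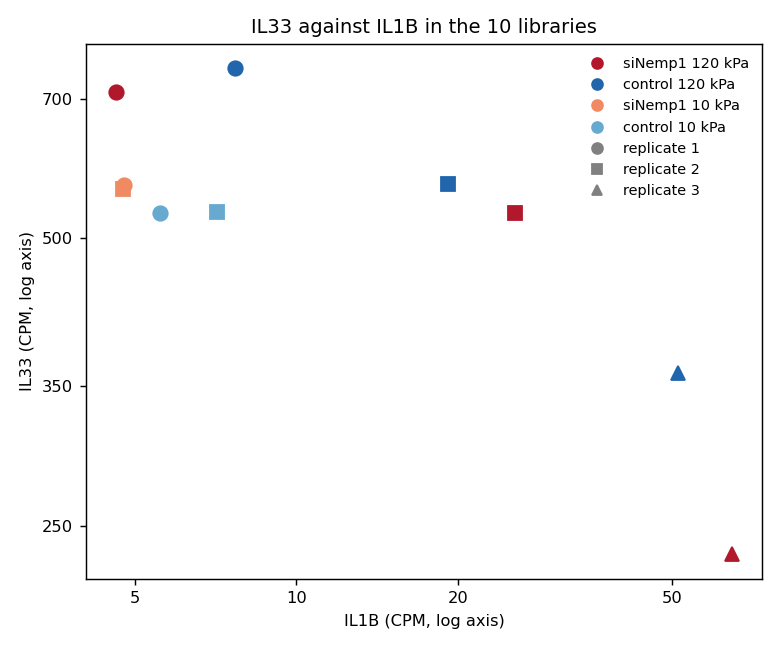
IL33 against IL1B (both in CPM, log axes) in the 10 libraries, coloured by group with the symbol giving the replicate number. The 2 libraries numbered 3 at 120 kPa stand at the lower right with 233 and 361 CPM of IL33, and the 4 libraries at 10 kPa lie close together.

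IL1A, the other ligand of IL1R1, was near the limit of counting, with the library numbered 3 again the highest of each stiff group. It had 7, 12 and 59 estimated counts in the siNemp1 libraries at 120 kPa, against 5, 5 and 27 in the control libraries. On the soft substrate it had 0 counts in both siNemp1 libraries, against 2 and 2 in the control libraries. In siNemp1 cells the pooled level at 120 kPa, 1.22 CPM, was at least 17.8-fold higher than at 10 kPa, taking 3 counts over the group as the limit that 0 counts allow. The library numbered 3 held 59 of the 78 counts, and without it the pooled level was 0.466 CPM and at least 6.78-fold higher. In control cells 37 counts at 120 kPa against 4 at 10 kPa gave a ratio of 5.82, with a 95% counting interval of 2.09 to 22.5. The library numbered 3 held 27 of those 37 counts, and without it the ratio was 2.50, with an interval of 0.722 to 10.9 that includes 1. These intervals cover counting error only, and the bounds in siNemp1 cells cover only the 0 counts at 10 kPa, taking the pooled level at 120 kPa as exact. IL1A passed the filter only through the libraries at 120 kPa. The direction of these stiffness ratios was favoured by the filter and is not a result. For siNemp1 against control at 120 kPa the log2 fold change of IL1A was 1.07 ± 0.82 (edgeR adjusted p = 0.55). IL1A lies on chromosome 2 from 112773915 to 112784590, minus strand.

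IL18, whose product makes lymphocytes release interferon-γ, was too low to measure. It had 6 counts over the 3 siNemp1 libraries and 3 counts over the 3 control libraries at 120 kPa, and 0 counts over the siNemp1 and 2 counts over the control libraries at 10 kPa. IL1RL1, the gene of the IL-33 receptor, was too low to measure as well. It had 9 counts over the siNemp1 libraries and 4 over the control libraries at 120 kPa, all of them in the libraries numbered 3. On the soft substrate it had 2 counts over the siNemp1 libraries and 0 over the control libraries, and 0 counts in a group allow up to 0.0745 CPM in control cells at 10 kPa. IL18 lies on chromosome 11 from 112143251 to 112164117, minus strand, and IL1RL1 on chromosome 2 from 102311502 to 102352037, plus strand.

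IL1RAP, the accessory chain shared by the IL-1 and IL-33 receptors, was the only tested member whose siNemp1 and control ranges did not overlap at 120 kPa; 17.9% of all tested genes did not overlap in that comparison, 10.9% with siNemp1 higher and 6.95% with siNemp1 lower. It had 21.2, 19.0 and 23.6 CPM in siNemp1 libraries, against 18.3, 15.5 and 13.6 CPM in control libraries at 120 kPa. Soft cultures had 17.6 and 15.0 CPM in siNemp1 libraries, against 16.1 and 17.0 CPM in control libraries. The siNemp1 libraries at 120 kPa were thus above the 7 other libraries, with the nearest control library at 18.3 CPM. The log2 fold change at 120 kPa was 0.43 ± 0.15 (95% interval 0.09 to 0.76), which did not pass over all genes (edgeR adjusted p = 0.18, or 0.088 with the replicate block). The siNemp1 level was 1.16, 1.23 and 1.74 times the control level in the pairs numbered 1, 2 and 3, and without the pair numbered 3 the log2 fold change was 0.20. On the soft substrate it was −0.02 ± 0.19, and the difference between the stiffnesses was 0.45 ± 0.24 (edgeR adjusted p = 1.00). IL1RAP lies on chromosome 3 from 190514051 to 190659750, plus strand.

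IL1R1, the signalling receptor of IL-1α and IL-1β, had 4.23, 3.62 and 2.68 CPM in siNemp1 libraries, against 5.47, 4.63 and 3.62 CPM in control libraries at 120 kPa. At 10 kPa it had 5.66 and 4.95 CPM in siNemp1 libraries, against 5.57 and 4.85 CPM in control libraries. The library numbered 3 was again the lowest of each stiff group. The siNemp1 level was 0.772, 0.782 and 0.740 of the control level in the pairs numbered 1, 2 and 3. The log2 fold change at 120 kPa was −0.38 ± 0.23 (edgeR adjusted p = 0.42, 0.21 with the block), and at 10 kPa it was 0.03 ± 0.28. In siNemp1 cells IL1R1 at 120 kPa lay below its level at 10 kPa in every library, and the log2 difference of −0.60 ± 0.25 missed the threshold (edgeR adjusted p = 0.40). IL1R1 lies on chromosome 2 from 102064544 to 102179874, plus strand.

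Over the 5 comparisons, no member was called by edgeR at an adjusted p under 0.05, with or without the replicate block, nor by DESeq2. For siNemp1 at 120 kPa DESeq2 gave no adjusted p for IL1A or IL1R1, so it could not call them there. The share of all tested genes called without the block was 0% for siNemp1 on the stiff substrate, 0% for siNemp1 on the soft substrate, 0.0143% for stiffness in control cells, 0% for stiffness in siNemp1 cells and 0.00715% for the difference between the siNemp1 effects. With the block these shares were 8.75%, 0.0286%, 0.0214%, 0.0143% and 0.0286% in the same order, so siNemp1 at 120 kPa was the only comparison with more than 4 called genes. IL1B, IL1R1 and IL1RAP are the 3 members whose unadjusted p-values can be read against these shares, since IL33 has no test here and IL1A passed the filter only through the libraries at 120 kPa. In edgeR's fit without the block, 2413 genes had an unadjusted p under 0.05 for siNemp1 at 120 kPa, among them IL1RAP, and 1655 genes for stiffness in siNemp1 cells, among them all 3. For siNemp1 at 10 kPa, stiffness in control cells and the difference it was 850, 569 and 235 genes, and 0 of the 3. With the block it was 3501 genes for siNemp1 at 120 kPa and 1543 for stiffness in siNemp1 cells, with IL1RAP the 1 of the 3 in both. For the other comparisons with the block it was 1426, 635 and 488 genes in the same order, and 0 of the 3.

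Groups that did not overlap were common in the small designs. For siNemp1 against control at 10 kPa, with 2 libraries a side, 57.3% of tested genes did not overlap, 28.8% higher and 28.5% lower. IL1A is left out of these counts, because it passed the filter only through the libraries at 120 kPa. Of the other 4 tested members 2 did not overlap at 10 kPa, IL33 being higher and IL1B lower in siNemp1 cells. For 120 kPa against 10 kPa in siNemp1 cells the share was 33.7% (18.2% higher, 15.5% lower), and IL1RAP was higher and IL1R1 lower at 120 kPa. In control cells it was 22.2% (10.3% higher, 11.9% lower), and IL1B was higher at 120 kPa.

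**Figure D3:**
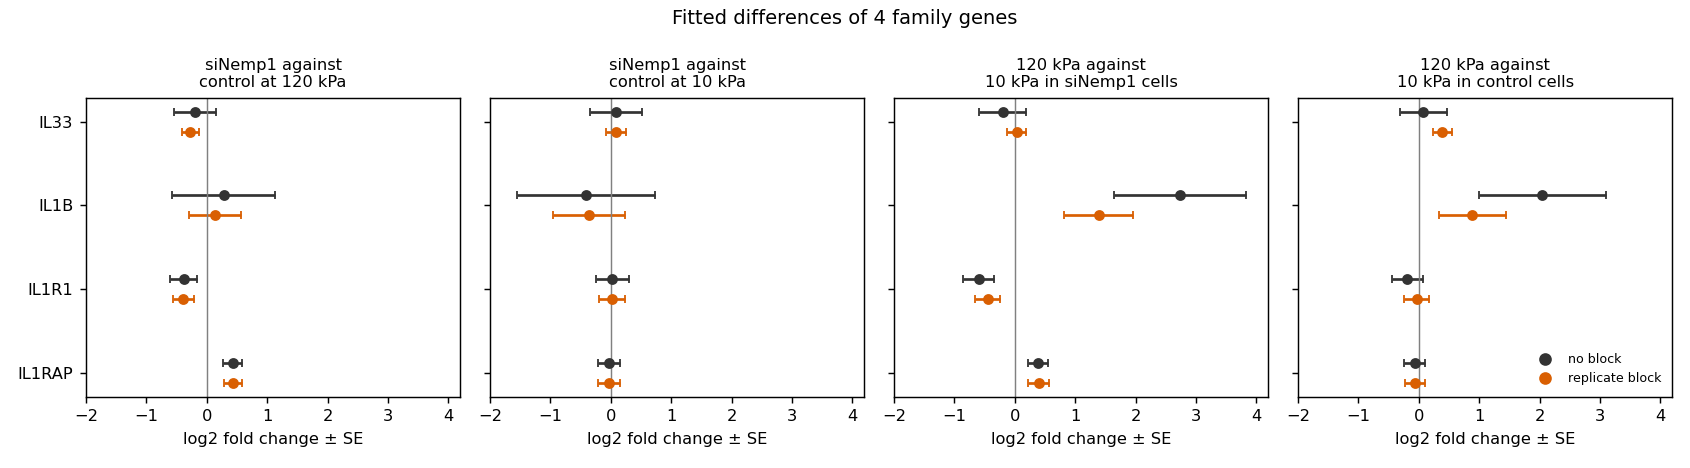
Log2 fold change ± SE of IL33, IL1B, IL1R1 and IL1RAP in 4 comparisons, without (dark) and with (orange) the replicate number as a block. IL1B has the widest errors, and its stiffness difference drops to 1.39 in siNemp1 cells and 0.89 in control cells with the block, which assumes the same replicate differences on both substrates.

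Between the libraries numbered 3 and 1 at 120 kPa, the fitted differences of IL1B, IL1A and IL33 were larger than those between treatments. In a fit with treatment and replicate number over the 6 libraries at 120 kPa, IL1B was higher by 3.21 ± 0.28 (log2, SE) in the libraries numbered 3 than in those numbered 1, and IL1A by 2.62 ± 0.54, while IL33 differed by −1.33 ± 0.14. IL1R1 differed by −0.63 ± 0.24 and IL1RAP by −0.13 ± 0.18. Of 13362 genes in that fit, 0.277% lay as far from 0 as IL1B, 3.90% as far as IL33 and 79.3% as far as IL1RAP. Between the libraries numbered 2 and 1 IL1B differed by 1.82 ± 0.28, IL33 by −0.42 ± 0.14 and IL1A by 0.55 ± 0.62, the last of which was smaller than the 1.07 between treatments. These differences were chosen after the values were seen and are given without a test, and IL1A passed the filter only through libraries numbered 2 and 3. The sources used here do not say what the number stands for.

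Most listed genes that IL-1 signalling is known to induce in epithelial and stromal cells were high in the same stiff libraries as IL1B. Of 20 listed response genes 17 were tested, and 16 of the 17 were higher in the libraries numbered 3 than in those numbered 1, with a median log2 difference of 1.46 against 0.01 over all genes. For the libraries numbered 2 against 1 it was also 16 of 17, with a median of 0.93 against −0.03. MMP1, among the higher genes both times, passed the filter only through libraries numbered 2 and 3, so its direction is not a result. CXCL8, the neutrophil chemokine interleukin-8, had 12.7, 93.2 and 162 CPM in the siNemp1 libraries numbered 1, 2 and 3, against 7.24, 37.9 and 107 CPM in the control libraries at 120 kPa. On the soft substrate CXCL8 had 7.55 and 6.36 CPM in siNemp1 libraries, against 3.40 and 2.80 CPM in control libraries. As for IL1B, the libraries numbered 2 and 3 on the stiff substrate were the high ones in both treatments.

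The 3 most abundant response genes did not share a pattern. NFKBIA, the inhibitor that NF-kB induces against itself, had 32.6, 89.1 and 87.7 CPM in siNemp1 libraries, against 16.7, 81.7 and 104 CPM in control libraries at 120 kPa. The soft libraries, with 60.9 and 27.3 CPM for siNemp1 against 41.6 and 53.5 CPM for control, lay within the range of the stiff ones. SOD2, the mitochondrial superoxide dismutase, stayed within 480 to 663 CPM in all 10 libraries, and differed by −0.13 ± 0.12 (log2) between the libraries numbered 3 and 1. CXCL8 was the third of these genes by mean level. PTGS2, the cyclooxygenase COX-2, which was picked after its values were seen, differed by 0.04 ± 0.22 between those libraries. Its mean was 4.17 CPM in siNemp1 against 5.36 CPM in control libraries at 120 kPa, and 4.01 against 9.33 CPM at 10 kPa. Its siNemp1 libraries lay below the control libraries at both stiffnesses, as for 6.95% of tested genes at 120 kPa and 28.5% at 10 kPa.

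No response gene was called between groups. For siNemp1 against control at 120 kPa, 12 of 17 had a positive log2 fold change with a median of 0.08, against 0.01 over all tested genes. At 10 kPa it was 8 of 17 with a median of −0.018, against −0.0018 over all tested genes. For 120 kPa against 10 kPa it was 17 of 17 in siNemp1 cells (median 0.66, against 0.02 over all genes) and 16 of 17 in control cells (median 0.56, against −0.01). With the replicate block these were 16 of 17 with a median of 0.27 in siNemp1 cells and 11 of 17 with a median of 0.28 in control cells. The block assumes the same replicate differences on both substrates. Yet deviations of same-numbered libraries from their group means correlated at 120 kPa (r = 0.305 to 0.608) and hardly at 10 kPa (r = 0.0157). CXCL8 rose from number 1 to number 2 in both treatments at 120 kPa and fell in both at 10 kPa. MMP1, counted among the 17, passed the filter only through libraries at 120 kPa. Its sign in the stiffness comparisons was favoured by the filter and is not a result. SOD2 and CXCL8 differed by 0.05 ± 0.11 and 0.81 ± 0.97 for siNemp1 against control at 120 kPa.

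**Figure D4:**
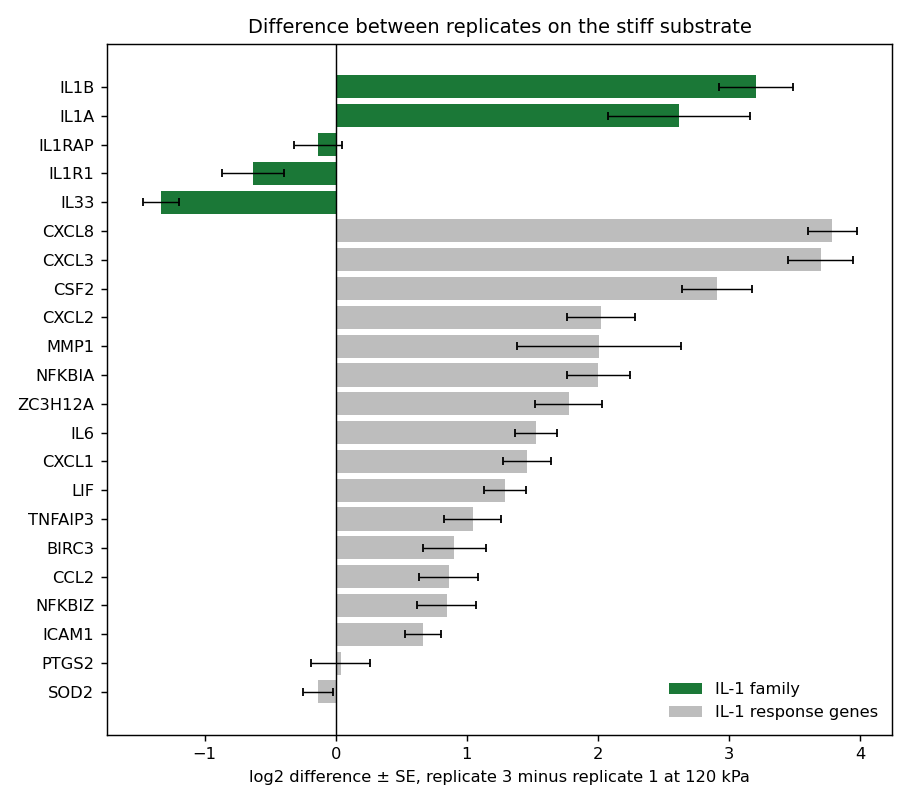
Log2 difference ± SE between the libraries numbered 3 and those numbered 1 at 120 kPa, from a fit with treatment and replicate number, for the 5 tested family genes (green) and the 17 tested IL-1 response genes (grey). IL33 lies at −1.33 and IL1B at 3.21, and 16 of 17 response genes lie above 0. MMP1 and IL1A passed the filter only through libraries numbered 2 and 3.

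Other measures differed between the same libraries. The share of counts in mitochondrially encoded genes was 1.06, 0.826 and 0.709% in the siNemp1 libraries numbered 1, 2 and 3 and 1.73, 1.40 and 0.913% in the control libraries at 120 kPa, and 1.48 to 1.60% in the 4 soft libraries. Leukocyte and mast cell markers were checked because such cells are a known source of IL-1β. Of 7 markers 3 passed the filter. The summed level of all 7, nearly all of it CD68, a lysosomal protein, was 494 to 857 CPM in siNemp1 and 713 to 1168 CPM in control libraries at 120 kPa, and 934 to 1020 CPM in siNemp1 and 1080 to 1082 CPM in control libraries at 10 kPa. With the replicate block CD68 fell with siNemp1 at 120 kPa by 0.46 ± 0.11 on the log2 scale (edgeR adjusted p = 0.025). Without the block no gene was called in that comparison, and the siNemp1 and control ranges of CD68 overlapped. PTPRC (CD45), which defines leukocytes, had 0.505 to 1.80 CPM over the 10 libraries, and CD14 had 0.587 to 2.64 CPM. LYZ, KIT, TPSAB1 and GATA1 had at most 8 counts in any library. Of 5 endothelial markers CDH5 had 0 counts in all 10 libraries, and their summed level was 1.42 to 3.07 CPM in siNemp1 and 1.60 to 2.04 CPM in control libraries at 120 kPa, and 1.92 to 2.18 CPM in siNemp1 and 1.51 to 1.84 CPM in control libraries at 10 kPa. The part that the mitochondrial share has in the levels of IL1B and IL33 was not tested.

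Of the remaining family ligands, IL1RN, the secreted antagonist of IL-1, was the only 1 of 7 tested. It had 2.01, 1.81 and 0.735 CPM in siNemp1 libraries, against 1.76, 1.60 and 1.85 CPM in control libraries at 120 kPa, and its log2 fold change there was −0.20 ± 0.39. IL36A and IL1F10 had 0 counts in all libraries, and IL36B, IL36G, IL36RN and IL37 had at most 4 counts in any library.

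Of 8 further receptors and decoys 3 were tested. IL18BP, the secreted protein that binds and neutralises IL-18, fell in siNemp1 cells at 120 kPa in the fit with the replicate block, which counted 0 higher and 1 lower in this list and called 6.24% of all tested genes higher and 2.51% lower. It had 3.54, 2.83 and 2.77 CPM in siNemp1 libraries, against 4.80, 5.51 and 4.93 CPM in control libraries at 120 kPa. The soft libraries had 4.78 and 4.24 CPM with siNemp1, against 5.47 and 5.01 CPM in control libraries. Every siNemp1 library lay below every control library of its stiffness, as it did for 6.95% of tested genes at 120 kPa and 28.5% at 10 kPa. The log2 fold change at 120 kPa was −0.74 ± 0.19 with the block (edgeR adjusted p = 0.039), and 0.092 was the edgeR adjusted p without it. IL1RAPL1, a brain-enriched relative of IL1RAP, had 33.5 to 50.9 CPM over the 10 libraries, and SIGIRR, an inhibitory receptor of the family, had 2.58 to 5.72 CPM. IL1R2, the decoy receptor of IL-1, and IL18R1 and IL18RAP, the IL-18 receptor chains, had at most 2 counts in any library.

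Of 19 genes of precursor processing and release 16 were tested, and 3 rose and 0 fell with siNemp1 at 120 kPa in the fit with the block, where 6.24% of all tested genes were called higher and 2.51% lower. NEK7, a kinase that the NLRP3 inflammasome needs, had 30.5, 27.8 and 19.0 CPM in siNemp1 libraries, against 18.6, 16.2 and 13.7 CPM in control libraries at 120 kPa. Its log2 fold change was 0.66 ± 0.12 (edgeR adjusted p = 0.011 with the block). S100A13, a carrier in the release of IL-1α, had 127, 107 and 107 CPM in siNemp1 libraries, against 69.1, 76.1 and 89.2 CPM in control libraries at 120 kPa. It rose by 0.54 ± 0.11 on the log2 scale (edgeR adjusted p = 0.018 with the block). GSDME, a gasdermin that caspase-3 cuts to open pores in the plasma membrane, had 122, 123 and 161 CPM in siNemp1 libraries, against 99.5, 105 and 105 CPM in control libraries. It rose by 0.38 ± 0.10 (edgeR adjusted p = 0.037 with the block). The siNemp1 and control libraries did not overlap at 120 kPa for NEK7, S100A13 or GSDME, where 10.9% of tested genes were higher without overlap, and without the block their edgeR adjusted p-values were 0.11, 0.072 and 0.14.

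The enzymes that cut the precursors were well expressed. CASP1, which cuts pro-IL-1β and pro-IL-18, had 124, 111 and 103 CPM in siNemp1 libraries, against 114, 95.9 and 82.4 CPM in control libraries at 120 kPa, and its log2 fold change with siNemp1 was 0.21 ± 0.13 (edgeR adjusted p = 0.44). CASP4 had 90.3 to 125 CPM over the 10 libraries. CAPN2, a catalytic subunit of the calpains, which cut pro-IL-1α, had 327 to 416 CPM. NINJ1, which ruptures the plasma membrane in lytic death, had 167 to 242 CPM. PYCARD, the inflammasome adaptor, had 0.252 to 0.978 CPM and NLRP3 0.831 to 2.68 CPM, while CASP5, NLRC4 and AIM2 did not pass the filter.

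Of the listed signalling genes 14 were tested, and 0 were called in either direction in any comparison, with or without the block. The 3 most abundant were MAP3K7, the kinase TAK1, with 29.1 to 39.4 CPM, its partner TAB2 with 26.7 to 34.6 CPM and the kinase IRAK2 with 24.6 to 31.3 CPM. For siNemp1 against control at 120 kPa, 7 of 14 had a positive log2 fold change with a median of 0.00, against 0.01 over all tested genes.

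Genes whose level followed that of IL33 across the 10 libraries were ranked by Pearson's r of log2(CPM + 1) over the 9649 genes that averaged 5 CPM or more. The closest were FKBP7 with r = 0.99, LINC02984 with r = 0.99, and FAP, SLC12A8 and LPAR1, a receptor of lysophosphatidic acid, with r = 0.98 each. Spearman's rho for these was 0.92, 0.95, 0.90, 0.90 and 0.79. FKBP7, a prolyl isomerase of the endoplasmic reticulum, had 57.7, 47.6 and 27.4 CPM in siNemp1 libraries, against 55.4, 47.8 and 35.5 CPM in control libraries at 120 kPa. FAP, a protease of the fibroblast surface, had 191, 145 and 81.2 CPM in siNemp1 libraries, against 193, 148 and 111 CPM in control libraries. As for IL33, the library numbered 3 was the lowest of each stiff group for both genes. Without the 2 libraries farthest from the median of IL33, those numbered 3 at 120 kPa, r was 0.94 for FKBP7, 0.94 for LINC02984, 0.89 for FAP, 0.85 for SLC12A8 and 0.81 for LPAR1. The lowest r was −0.97 for both CLSTN2 and KHNYN. These values describe 10 libraries that share cell line, scaling and depth; with library totals in place of TMM, 4 of the 5 closest genes were shared and 0 of the 2 lowest.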

How the data were processed

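The 10 RPE-1 libraries were assigned to treatment and stiffness by their titles. Per the labels, ribosomal RNA was removed from total RNA by an RNase H method before random-hexamer reverse transcription. Salmon 1.80, Trimmomatic 0.33, FastQC 0.11.9, the GRCh38 build and edgeR, with no version, appear in the submitters' processing notes; the sources used here do not give the strandedness or the annotation used for counting. The values deposited are expected counts (reads per gene as estimated by the authors, unscaled), rounded here to whole numbers. The 7 family members and the gene lists were chosen with earlier results of these data known, and 1 listed gene is not reported here.

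Genes were filtered with filterByExpr, which left 13990 of 40664, and libraries were scaled with TMM. All 10 libraries entered 1 quasi-likelihood model of edgeR 4.0.16 (R 4.3.3, limma 3.58.1) with a mean for each group and 6 residual degrees of freedom. Tests were two-sided with Benjamini-Hochberg adjustment over all tested genes, and an adjusted p under 0.05 was called. The fits were tested on simulated data, where 63.6% of genes changed by 1 on the log2 scale were called without the block and 62.6% with it. The simulated libraries had no replicate differences, so this does not show how either fit handles those at 120 kPa. CPM values are TMM-scaled counts per 1000000, errors of log2 fold changes are standard errors of the fit, and a gene is called too low to measure where it did not pass the filter. Genes named from the lists were those called in any fit, or otherwise the 3 of a list with the highest mean CPM; a few more are named for background levels, after their values were seen.

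Deviations of same-numbered siNemp1 and control libraries from their group means were correlated across genes. At 120 kPa r was 0.608 between the libraries numbered 1, 0.305 between those numbered 2 and 0.482 between those numbered 3, and on the soft substrate it was 0.0157. The pairing therefore comes from the titles' numbers and the data, and the blocked fit (4 residual degrees of freedom) is given where it changed a call. That fit is also given for IL33, IL1B, IL1R1, IL1RAP and the response genes, where it changed no call. Alternatives were DESeq2 1.42.0, other scalings, no filter on low counts, only the groups compared, and each library left out. After the data were seen, the block at 120 kPa only and leaving out both libraries numbered 3 were added. Gene positions and lengths came from GENCODE 29 and promoters from RefSeq.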

Additional observations from a re-analysis of the deposited data

Results flagged for a closer look

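MAP3K7, the kinase TAK1 of the signalling list, was flagged because its stiffness difference ran in opposite directions in the 2 treatments. It had 34.3, 39.4 and 36.3 CPM in siNemp1 libraries at 120 kPa, against 33.8 and 33.1 CPM in siNemp1 libraries at 10 kPa. In control cells it had 29.1, 31.4 and 30.8 CPM at 120 kPa, against 33.2 and 32.4 CPM at 10 kPa. The stiff libraries were thus all higher in siNemp1 cells, as for 18.2% of tested genes, and all lower in control cells, as for 11.9%. The share of tested genes that did both was not counted. The difference between the stiffness effects was 0.24 ± 0.16 on the log2 scale and did not pass over all genes (edgeR adjusted p = 1.00).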

How the results depend on the processing

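No family member was called in any of the 5 comparisons under any alternative except no filter on low counts, where 2 members were called for stiffness in siNemp1 cells and 1 in control cells, IL1B in both; the cause was not tested. DESeq2 gave no adjusted p for IL1A or IL1R1 for siNemp1 at 120 kPa. The number of genes called over the whole table depended far more on the setting. For siNemp1 against control at 120 kPa it was 0 in the fit without a block and 1224 with the replicate block, 642 with DESeq2, 643 with no filter, 1255 with the block in the 120 kPa libraries only, 760 without both libraries numbered 3, and 0 to 582 with each library left out, the 582 without control replicate 3. At 10 kPa, against 0, it was 4 with the replicate block, 2308 with only the groups compared, 17 with DESeq2, 66 with no filter, 3 without both libraries numbered 3 and 0 to 2 with a library left out. For stiffness in siNemp1 cells, against 0, it was 2 with the block, 1 with only the groups compared, 111 with DESeq2, 529 with no filter, 48 without both libraries numbered 3 and 0 to 2 with a library left out. In control cells, against 2, it was 12 with DESeq2, 159 with no filter and 0 to 3 with a library left out. For the difference between siNemp1 effects, against 1, it was 4 with the block, 3 with DESeq2, 70 with no filter, 0 without both libraries numbered 3 and 0 to 3 with a library left out. Log2 fold changes that changed sign were never called. With each library left out, siNemp1 against control at 120 kPa ran from −0.28 to 2.19 for IL1A and from −0.81 to 1.23 for IL1B, lowest without siNemp1 replicate 3 for both, from −0.57 to 0.10 for IL33, and at 10 kPa from −0.073 to 0.13 for IL1R1 and from −0.13 to 0.070 for IL1RAP. IL1RAP ran from −0.19 to 0.029 for stiffness in control cells, and was 0.050 without both libraries numbered 3, and IL1B ran from −0.41 to 1.65 for the difference. The replicate block changed no call of a member, but it did change that of NEMP1 at 120 kPa. Counts of at most 59 per library limit what can be said of IL1A, and 0 to 9 leave IL18 and IL1RL1 unmeasured.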
